A study of Mus musculus with 1615 samples.

Results

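Pericytes and visceral smooth muscle cells of the mouse colon were compared within the same 3 mice, all of the dual reporter line ACTA2GFP:CSPG4dsRED. Of the 1615 cells in the series, 8.421% were pericytes and 33.13% visceral smooth muscle cells of this line, 41.55% in all, and the line as a whole made up 68.48%; within the line the members were 60.67% of the cells. Single cells went by flow sorting into 384-well plates and gave full-length Smart-Seq2 libraries, a protocol without molecular identifiers. The mice 20GG79:1 and 20GG95:3 were female and 20GG79:6 was male by their labels, and all 3 carried both reporters and had no stated treatment. Age is labelled as 8 to 30 weeks, whereas the design text of the series has only males, of at most 21 weeks. Colon is the labelled tissue, but the protocol names the heart. Of 9 markers of heart muscle, Myh6, Nppa and Myl7 stood at no more than 0.06245 CPM in the summed counts of either class in any mouse. Tnni3 and Mybpc3 were at no more than 1.62 CPM, Tnnt2 at no more than 3.07 CPM and Ryr2 at no more than 12.2 CPM. Pln, which smooth muscle also makes, was at 136.8, 9.88 and 28.1 CPM in pericytes and 0.993, 8.24 and 50.004 CPM in visceral cells, and Actc1, an actin of heart that smooth muscle can make, at 4.999, 2.31 and 9.53 and 309.03, 239.4 and 485.7 CPM. In cells gated as mural or smooth muscle these heart values alone do not settle the organ. Actg2, the gamma actin of enteric smooth muscle, was at 2297, 2198 and 3272 CPM in visceral cells. Of the epithelial markers, Muc2 was at 0.854, 46.1 and 0.665 CPM in pericytes and 8.45, 136.5 and 0.759 CPM in visceral cells. Lgals4 was at 105.7, 121.9 and 40.8 CPM in pericytes and 3.30, 74.3 and 9.99 CPM in visceral cells. The reporters are named after Acta2 and Cspg4, no source used here gives the sort gates, and the part of the sort in the levels of these 2 genes was not tested.

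The classes were selected on measured values, as CPM in each cell, that is, a gene's counts over all gene counts of the cell, times 1000000. A pericyte had at least 200 CPM of Notch3 and under 200 CPM of Pdgfra and of Cdh5, and its Abcc9 and Gpx3 together were at least as high as its P2rx1 and Sorbs2 together. A visceral cell had at least 1000 CPM of Myh11, under 200 CPM of Notch3 and of Pdgfra, and under 100 CPM of Cdh5 and of Epcam. The mice 20GG79:1, 20GG79:6 and 20GG95:3 gave 42, 15 and 79 pericytes. Their visceral cells were 9.721%, 3.777% (61 cells) and 19.63% of the series. Values are given below for the mice in that order. The pericyte gate held 1 cell of all other lines of the series and the visceral gate held 0.

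Pericytes are mural cells that sit in the basement membrane of capillaries and small vessels and wrap around the endothelium. They are recruited by platelet-derived growth factor acting on the receptor Pdgfrb, and their maintenance depends on Notch signals. Visceral smooth muscle forms the muscle layers of the gut wall, where it contracts in response to enteric nerves, pacemaker cells and local mediators. Both cell types use actin, myosin and calcium to contract, but they differ in origin and surroundings: in the developing gut, Hedgehog ligands from the epithelium act on the mesenchyme that gives rise to the muscle.

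**Figure D1:**
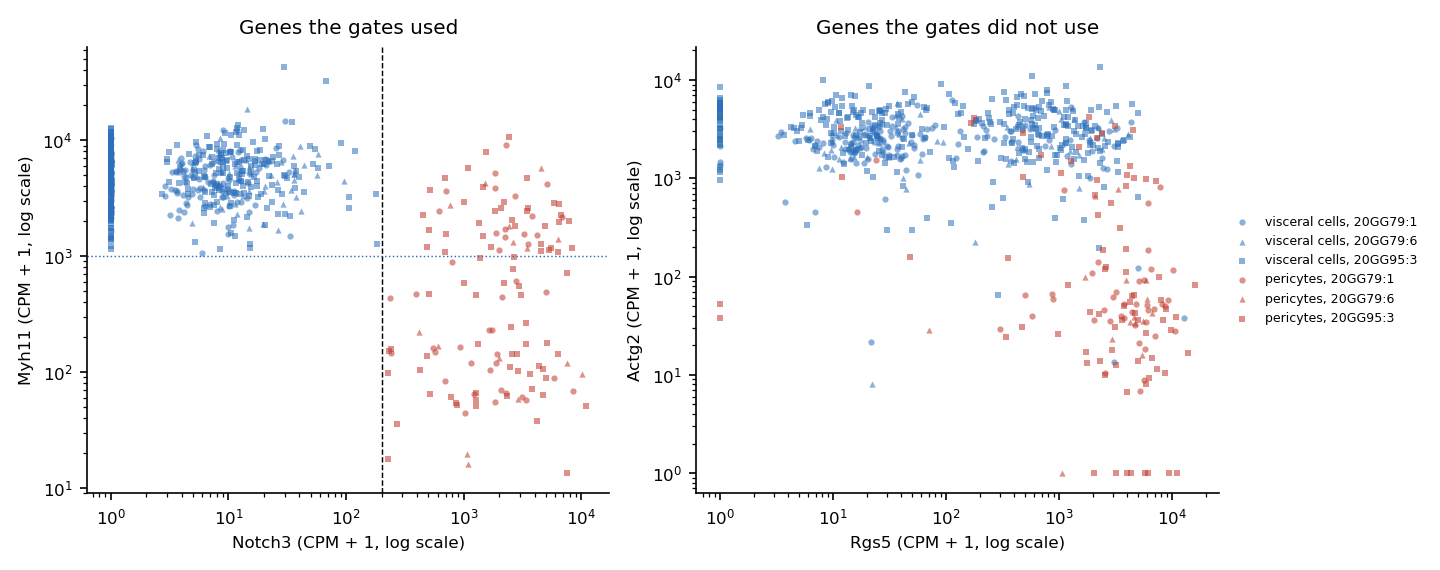
Levels in single cells, as CPM + 1 on log scales: Notch3 against Myh11, which the gates used, on the left, and Rgs5 against Actg2, which the gates did not use, on the right. Each point is a cell, red for pericytes and blue for visceral cells, with a marker shape for each mouse; the dashed line is the Notch3 limit of 200 CPM and the dotted line the Myh11 limit of 1000 CPM. In the right panel 44.11% of the visceral cells have at least 100 CPM of Rgs5.

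The gating genes describe the classes and were not tested. Notch3, a Notch receptor of mural cells, ranged from 225.1 to 10864 CPM over the pericytes, with a median of 2198 CPM, and from 0 to 180.4 CPM over the visceral cells, with a median of 4.15 CPM. It was at 0 in 40.56% of the visceral cells. Myh11, the heavy chain of smooth muscle myosin, ranged from 1072.9 to 42600 CPM over the visceral cells, with a median of 5077 CPM, and its median over the pericytes was 479.6 CPM. Of the pericytes, 58 (42.65%) had at least 1000 CPM of Myh11, so the pericyte gate also held cells with much of this myosin. Few cells lay close to the limits: 8 pericytes had Notch3 from 200 to under 400 CPM, 5 visceral cells had it from 100 to under 200 CPM, and 31 visceral cells had Myh11 from 1000 to under 2000 CPM, while 12 cells just missed the visceral gate with Myh11 from 500 to under 1000 CPM. With Pdgfra and Cdh5 under 200 CPM, 12 cells had Notch3 from 100 to under 200 CPM, just under the pericyte limit, those 5 visceral cells included. In the plot of single cells, the pericytes form a group to the right of the Notch3 limit that spreads from 12.4 to 10689 CPM of Myh11.

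Pericyte libraries were shallower. Gene counts per cell had a median of 120442 (49106 to 540944) in pericytes and 187586 (45388 to 919547) in visceral cells, and ERCC spike-ins, an artificial RNA standard, took a median of 3.25% and 1.82% of all counts. The spike-in share was higher in pericytes in 3 of 3 mice, with medians of 2.73%, 2.45% and 3.52% against 1.51%, 1.59% and 2.16%. So was the share of mitochondrially encoded RNA, with medians of 1.42%, 1.15% and 1.83% against 0.956%, 0.759% and 1.42%. The part of depth and RNA quality in the results was not tested. One mouse stood apart: 10 of the 15 pericytes and 28 of the 61 visceral cells of the male 20GG79:6 held at least 2 markers of another cell type at 50 CPM or more, against 8 of 42 and 6 of 79 pericytes and 2.548% and 3.155% of the visceral cells of the females. Its sex and its plate cannot be told apart from the mouse itself. All markers of blood endothelium had counts in pericytes except Cdh5, at 0 in 20GG79:1, and the 9 markers summed to 275.8, 144.6 and 256.4 CPM in pericytes against 7.61, 100.5 and 21.1 CPM in visceral cells. The largest part of the pericyte sums was Plvap, a protein of endothelial diaphragms, at 236.9, 79.4 and 198.6 CPM against 0.296, 52.1 and 4.29 CPM. The 10 immune markers summed to 24.4, 1025.7 and 7.2 CPM in pericytes and 35.5, 54.9 and 11.2 CPM in visceral cells, and the 10 epithelial markers to 371.3, 443.5 and 100.1 CPM against 41.04, 514.4 and 33.8 CPM. The part of these cells' RNA in the results below was not tested, and the 2 shares of called genes that follow are also given without the 24 pericytes and 42 visceral cells that held such markers.

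Counts were summed for each mouse and class, and the classes were compared with the mouse as a block. Of 14688 genes, with the 9 gating genes left out, 1.03% were higher in pericytes and 0.926% were higher in visceral cells at an adjusted p of at most 0.05, by edgeR's quasi-likelihood test with Benjamini-Hochberg adjustment. An unadjusted p under 0.05 was reached by 1781 genes. Counts of called list members below stand beside the shares of 1.03% and 0.926% and were not tested against them. All called genes, 1.954% of those tested, differed in the same direction in 3 of 3 mice, and the smallest change among them was a log2 fold change of -1.06. Every pericyte sum lay above every visceral sum for 1144 of the 14688 genes, and the reverse held for 2114. Nearly every gene called higher in pericytes was so parted, and every gene called higher in visceral cells. Fold changes are given as pericytes over visceral cells, so that positive values are higher in pericytes, and the median over all genes tested was -0.23. The classes were cut from the same cells that were then compared, so a call says that a gene that follows the gating genes does so in all 3 mice, and is no independent evidence that the classes exist. Without the cells that held markers of other types the shares, still of the 14688 genes, were 1.069% and 1.117%. That fit tested 13444 genes, kept 5 pericytes of 20GG79:6 and shared 66.9% of the calls. Of the 92 genes that the naming rule picks, it tested 87, and 17 of these lost their call. Without the male 20GG79:6 the shares of called genes were 0 and 0, with 2168 genes at an unadjusted p under 0.05. The smallest adjusted p was then 0.0569. That fit had 1 residual degree of freedom in place of 2, and limma-voom on the same 2 mice gave 0 and 0 as well, with 2753 genes at an unadjusted p under 0.05. Each of those 92 genes kept its direction there. The edgeR fits without 20GG79:1 and without 20GG95:3 also had 1 residual degree of freedom. As shares of the 14688 genes, they called 1.048% and 0.8374% without 20GG79:1, and 1.062% and 0.7285% without 20GG95:3.

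**Figure D2:**
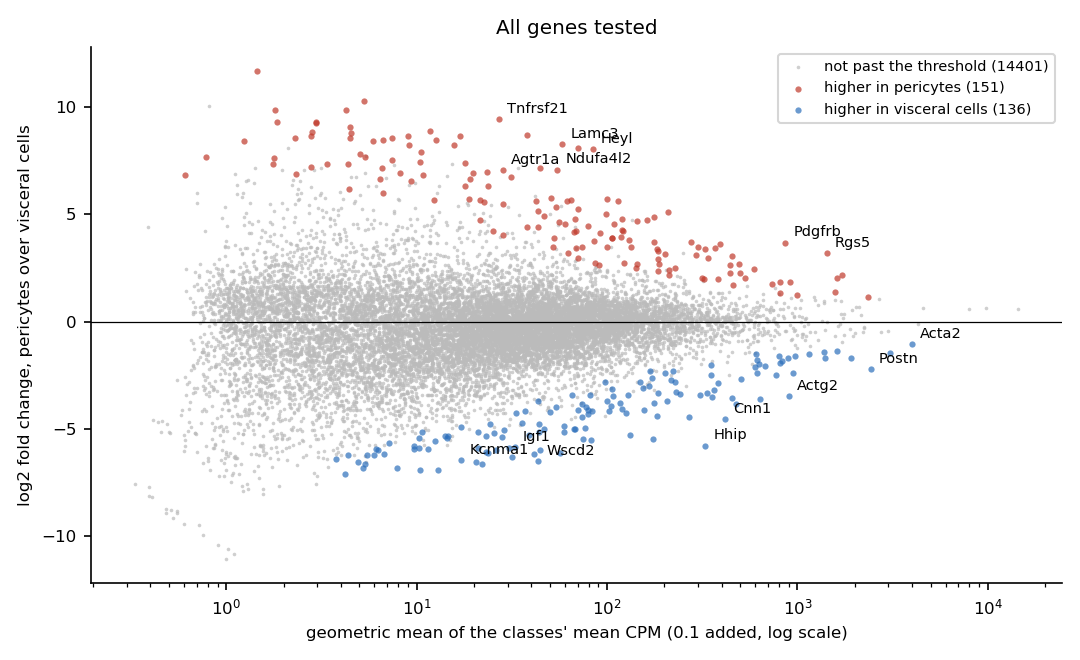
The log2 fold change of pericytes over visceral cells (vertical axis) against the geometric mean of both classes' mean CPM, with 0.1 added, on a log scale (horizontal axis), for the 14688 genes tested. Red points are the 1.03% of genes higher in pericytes, blue points the 0.926% higher in visceral cells and grey points did not pass the threshold; labelled genes such as Lamc3 (8.27) and Hhip (-5.78) are described in the text.

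The class names were checked against marker genes that the gates did not use. All 8 such pericyte markers tested were higher in pericytes. The comparison is with visceral cells only, so it cannot tell pericytes from vascular smooth muscle cells. Rgs5, a regulator that shortens signals of G protein-coupled receptors and a widely used pericyte marker (ENSMUSG00000026678, chromosome 1 from 169655501 to 169695813, GRCm38), stood at 4315, 4199 and 3877 CPM in pericytes and 423.1, 388.6 and 657.4 CPM in visceral cells, a log2 fold change of 3.21 ± 0.30 SE at an adjusted p of 0.00162. The receptor gene Pdgfrb stood at 2897, 2871 and 3140 against 218.7, 295.03 and 230.6 CPM, a log2 fold change of 3.69 ± 0.25 SE at an adjusted p of 0.00101. For both genes every pericyte value lay above every visceral value. Vascular cells, gated as given below and not tested, lay between the classes for both. They had 2126, 2590 and 1320 CPM of Rgs5 and 1128, 2002 and 1404 CPM of Pdgfrb. Their Kcnj8, at 147.2, 204.7 and 76.99 CPM, was instead far below that of pericytes. Cspg4, the proteoglycan NG2 that names one of the reporters, was at 1324, 1489 and 1024.2 against 77.8, 102.2 and 178.05 CPM (3.60 ± 0.44 SE at an adjusted p of 0.00466). Kcnj8, the pore of an ATP-sensitive potassium channel, was nearly the same in the pericytes of the 3 mice, at 1181, 1160 and 1133 CPM, and lower and more spread in visceral cells, at 133.1, 154.6 and 340.4 CPM (2.70 ± 0.41 SE at an adjusted p of 0.013). Vtn, which encodes the matrix protein vitronectin, had a log2 fold change of 8.11. Of the 9 visceral markers tested, 5 were higher in visceral cells: Hhip, Cnn1, Actg2, Acta2 and Smtn. Des, the intermediate filament desmin, did not pass, with 1417, 1740 and 1599 CPM in pericytes against 412.4, 993.5 and 1480 CPM in visceral cells (1.003 ± 0.35 SE at an adjusted p of 0.24), and its groups overlapped.

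Notch signalling passes between touching cells: a ligand such as Dll4 on one cell triggers the cleavage of a receptor such as Notch1 or Notch3 on its neighbour, and Hey and Hes factors are its usual targets. Of 15 Notch genes tested, which do not include the gating gene Notch3, 3 were higher in pericytes, 0 in visceral cells and 12 did not pass, and the list's median was 1.33. The ligand Dll4 was at 163.99, 356.5 and 108.998 CPM in pericytes and 0.571, 2.44 and 0.185 CPM in visceral cells (8.24 ± 0.79 SE at an adjusted p of 0.00162). The receptor Notch1 was at 274.3, 571.01 and 559.3 against 21.2, 49.8 and 37.03 CPM (3.805 ± 0.43 SE at an adjusted p of 0.00325). The target Heyl (ENSMUSG00000032744, chromosome 4 from 123233556 to 123249875) was at 1454, 1448 and 969.5 against 7.19, 2.75 and 6.13 CPM, a log2 fold change of 8.06 ± 0.59 SE at an adjusted p of 0.00107, with no overlap between the classes. Pericytes were above visceral cells in every mouse for all 3 genes, while Hey1 (4.25, adjusted p = 0.0891), Hes1 (0.98, adjusted p = 0.56) and Jag1 (0.62, adjusted p = 0.802) did not pass. Dll4 had counts in 42 pericytes (30.88%) and Heyl in 83.82% of them. Dll4 is also a gene of arterial endothelium, and the endothelial marker sums given above moved in the same direction, mostly through Plvap. Kdr was at 0.488, 3.29 and 0.443 CPM in pericytes and 0.0211, 4.18 and 0.241 CPM in visceral cells. Of the 6 endothelial markers tested by edgeR, all 6 had estimates above 0 and 0 were called. The part of endothelial RNA in the Dll4 level was not tested.

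Receptors for contractile and relaxing agents were called on both sides. Of 41 G protein-coupled and purinergic receptors tested, 4 were higher in pericytes, 7 in visceral cells and 30 did not pass, with a median of -0.87. Agtr1a, the angiotensin II receptor (ENSMUSG00000049115, chromosome 13 from 30336441 to 30382867), was at 244.3, 253.4 and 296.5 CPM in pericytes and 5.96, 1.94 and 0.851 CPM in visceral cells (7.06 ± 0.87 SE at an adjusted p of 0.00471). The prostacyclin receptor Ptgir was at 225.6, 280.7 and 244.8 against 5.81, 27.9 and 19.8 CPM (4.16 ± 0.63 SE at an adjusted p of 0.0131). Adra2a, an adrenergic receptor, was at 66.2, 78.7 and 93.2 against 0.190, 0.125 and 0.130 CPM (9.08 ± 1.14 SE at an adjusted p of 0.00469). The adenosine receptor Adora2b was far less even, at 5.97, 60.3 and 104.3 CPM in pericytes and at most 0.0925 CPM in visceral cells (9.27 ± 1.64 SE at an adjusted p of 0.0263); 1 cell of 20GG95:3 held 30.3% of its pericyte counts. Of those higher in visceral cells, Tacr2, a tachykinin receptor, was at 0.366, 0.659 and 0.997 CPM in pericytes and 45.2, 72.1 and 123.2 CPM in visceral cells (-6.81 ± 1.05 SE at an adjusted p of 0.0131). Bdkrb2, the bradykinin B2 receptor (ENSMUSG00000021070, chromosome 12 from 105563226 to 105595237), was at 12.9, 5.93 and 2.55 against 423.7, 484.5 and 432.95 CPM (-6.14 ± 0.67 SE at an adjusted p of 0.00281). F2r, the thrombin receptor, was at 286.7, 25.7 and 139.02 against 1704, 1499 and 924.8 CPM (-3.56 ± 0.58 SE at an adjusted p of 0.0192). The prostaglandin E2 receptors Ptger3 (-6.21) and Ptger2 (-5.43) and the adenosine receptor Adora1 (-5.95) were higher in visceral cells too.

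2 more receptors were among the 10 largest changes in pericytes, outside that list: the somatostatin receptor Sstr2 at 111.9, 76.4 and 78.4 against 0.190, 0.0625 and 0.0555 CPM (9.87 ± 1.16 SE at an adjusted p of 0.00355), and Gper1, an oestrogen-binding receptor, at 192.8, 70.2 and 215.3 against 0.571, 0.437 and 0.204 CPM (8.67 ± 0.996 SE at an adjusted p of 0.00355). They were present in a minority of cells: 28 pericytes (20.59%) had counts of Sstr2 and 37 (27.21%) had counts of Gper1. Hcar2, the niacin receptor, was in 20 pericytes, and 1 cell held 39.7% of its pericyte counts (8.78 ± 1.34 SE at an adjusted p of 0.0132).

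Both subunits of soluble guanylate cyclase, the enzyme that nitric oxide activates, were higher in pericytes. Gucy1a1 was at 1591, 1879 and 1532 CPM against 592.7, 410.3 and 497.6 CPM (1.84 ± 0.32 SE at an adjusted p of 0.0257) and Gucy1b1 at 634.5, 793.4 and 439.6 against 223.9, 161.8 and 120.5 CPM (1.98 ± 0.40 SE at an adjusted p of 0.0454). The adenylate cyclase Adcy3 was at 619.1, 231.96 and 374.6 against 33.9, 19.4 and 76.9 CPM (3.46 ± 0.57 SE at an adjusted p of 0.0192). These were the 3 of 18 nitric oxide and cyclic nucleotide genes that passed, all higher in pericytes, with a median of 0.60 for the list. Gucy1b1 lost its call under 6 other settings that kept 20GG79:6, relative log expression factors among them. Of 12 RGS genes, which switch off G protein signals, 2 were higher on each side. Beside Rgs5, Rgs4 was higher in pericytes at 1060.2, 1460 and 840.5 against 15.01, 48.2 and 54.7 CPM (5.11 ± 0.52 SE at an adjusted p of 0.00202), while Rgs10 (12.4, 15.5 and 7.2001 against 498.1, 349.4 and 320.3 CPM, -5.01 ± 0.58 SE at an adjusted p of 0.00356) and Rgs2 (6.71, 4.94 and 11.9 against 438.6, 195.4 and 190.6 CPM, -5.01 ± 0.69 SE at an adjusted p of 0.00823) were higher in visceral cells. So the members of 1 family stood at opposite ends of the comparison.

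Of 22 potassium and chloride channel genes tested, Kcnj8 was higher in pericytes, 2 were higher in visceral cells and 19 did not pass. Kcnma1, the large-conductance calcium-activated potassium channel that limits contraction, was at 3.17, 1.98 and 0.443 CPM in pericytes and 104.9, 154.9 and 190.1 CPM in visceral cells (-6.45 ± 1.07 SE at an adjusted p of 0.0202), and its partner Kcnmb1 did not pass (-2.81, adjusted p = 0.122). Kcnh2, a voltage-gated potassium channel, was at 9.02, 17.5 and 13.3 against 207.01, 271.8 and 181.4 CPM (-3.99 ± 0.64 SE at an adjusted p of 0.0165).

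Growth factor genes were called on both sides: of 43 genes for PDGF, VEGF, angiopoietin, TGF-beta and related signals, 8 were higher in pericytes, 4 in visceral cells and 31 did not pass, with a median of 1.23. Pericytes were higher in Il34, a ligand of the macrophage receptor Csf1r, at 575.6, 456.01 and 566.04 against 13.4, 26.9 and 14.5 CPM (5.03 ± 0.47 SE at an adjusted p of 0.00162). They were higher in Nrp1, a co-receptor of VEGF, at 568.8, 961.8 and 616.1 against 33.5, 11.1 and 9.57 CPM (5.63 ± 0.65 SE at an adjusted p of 0.00355), and in Igfbp4, which binds insulin-like growth factors, at 960.2, 937.1 and 1140 against 101.001, 137.96 and 78.6 CPM (3.39 ± 0.35 SE at an adjusted p of 0.00202). Igfbp7 (1.74), the chemokine Ccl11 (3.48) and Angptl2 (1.23) were also higher in pericytes. Of the 4 higher in visceral cells, 3 encode ligands. Igf1, insulin-like growth factor 1, was at 4.88, 4.94 and 2.77 CPM in pericytes and 233.5, 277.2 and 237.2 CPM in visceral cells (-5.84 ± 0.68 SE at an adjusted p of 0.00355). Pdgfc, a PDGF ligand, was at 17.8, 0.988 and 1.55 against 309.6, 231.3 and 206.9 CPM (-6.17 ± 0.92 SE at an adjusted p of 0.0116). Fgf7, a growth factor for epithelium, was at 3.05, 1.65 and 11.4 against 201.2, 76.9 and 170.8 CPM (-5.05 ± 0.87 SE at an adjusted p of 0.0227). Igfbp2 was higher in visceral cells as well, though at 6.32, 114.5 and 115.3 CPM it was low in 20GG79:1 (-5.90 ± 1.07 SE at an adjusted p of 0.0284).

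**Figure D3:**
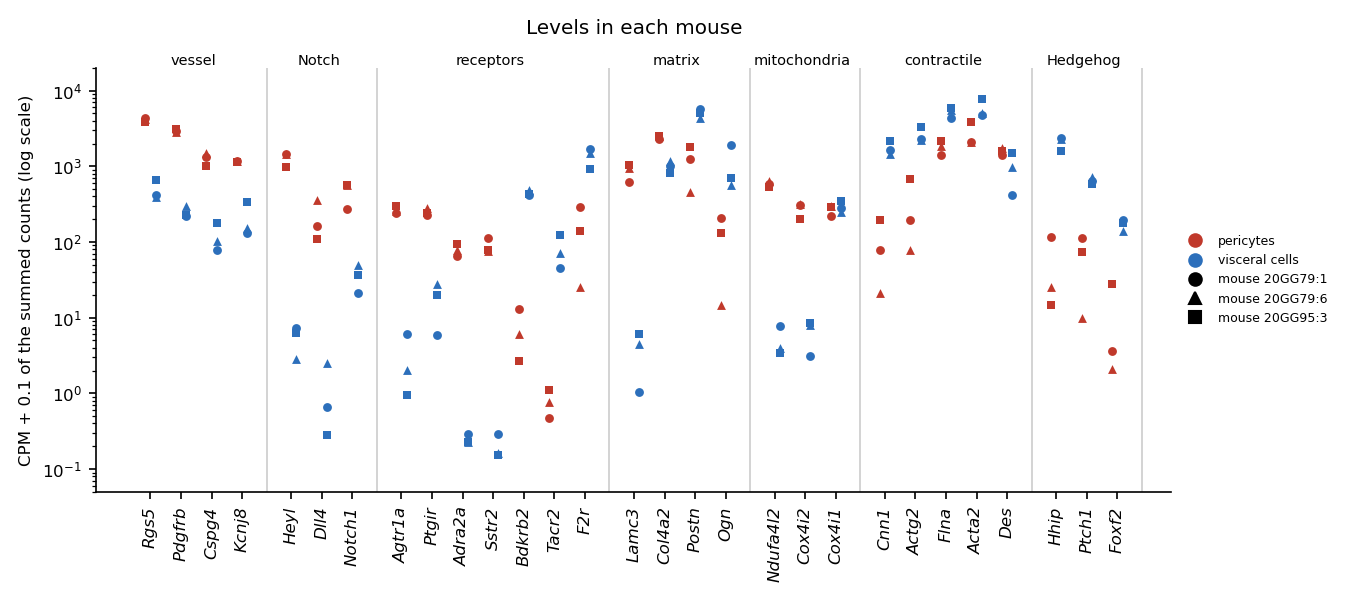
CPM of the summed counts, with 0.1 added, on a log scale, for 29 genes in groups by role. Each point is a mouse, red for pericytes and blue for visceral cells; Rgs5 and the other vessel genes are higher in all 3 pericyte sums, Hhip and the other Hedgehog genes in all 3 visceral sums, and Cox4i1 and Des overlap.

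Visceral cells were higher in part of the contractile apparatus. Of 40 contractile genes tested, 10 were higher in visceral cells, 1 in pericytes and 29 did not pass, with a median of -0.93. Actg2, the gamma actin of enteric smooth muscle (ENSMUSG00000059430, chromosome 6 from 83512905 to 83536265), was at 195.1, 78.7 and 670.7 CPM in pericytes and 2297, 2198 and 3272 CPM in visceral cells (-3.46 ± 0.41 SE at an adjusted p of 0.00402). Cnn1, calponin, which binds actin and damps myosin, was at 78.9, 21.4 and 195.7 against 1640, 1441 and 2181 CPM (-4.53 ± 0.46 SE at an adjusted p of 0.00202), with no overlap between the classes. Tes, a protein of focal adhesions, was at 17.2, 4.61 and 10.6 against 275.2, 187.4 and 498.1 CPM (-4.87 ± 0.61 SE at an adjusted p of 0.00497), and Flna, the actin crosslinker filamin A, at 1420, 1832 and 2160 against 4336, 5558 and 5808 CPM (-1.45 ± 0.20 SE at an adjusted p of 0.00823). Acta2 differed by far less, at 2102, 2107 and 3888 CPM in pericytes and 4827, 5009 and 7856 CPM in visceral cells (-1.06 ± 0.19 SE at an adjusted p of 0.0263). Smtn (-2.38), Csrp1 (-2.07), Pdlim3 (-1.70), Tpm2 (-1.498) and Fhl1 (-1.40) complete the 10. The myosin light chain Myl9 (-0.47, adjusted p = 0.463), Tagln (-1.12, adjusted p = 0.103) and Myocd, the coactivator of smooth muscle genes (-1.98, adjusted p = 0.162), did not pass. The member higher in pericytes was Myh9, the non-muscle myosin heavy chain, at 424.2, 356.2 and 525.2 against 93.3, 91.6 and 121.6 CPM (2.18 ± 0.40 SE at an adjusted p of 0.0317). The actin genes are near-identical, so reads of Acta2, Actg2 and Actc1 may have been divided unequally between them. The visceral count ran from 4 to 22 over the alternatives that kept 20GG79:6: it was 4 without cells that held markers of other types, 6 without 20GG95:3, and 4 with relative log expression factors, under which Acta2 and Flna did not pass and the median of all genes moved from -0.23 to -0.08.

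The contractile genes called in visceral cells, which share a direction because they were chosen by it, were looked up in RefSeq's promoter windows (GRCm38.p6). Of the 10, 9 had a window, of 250 bases before and 50 bases after a gene's start. The CArG box, the site of serum response factor, is the motif most tied to smooth muscle genes; it was searched in its strict form, with only A or T between its outer bases, which reads alike on both strands. Boxes with any other letter inside were not counted. The Acta2 stretch below holds ccctatatgg and ccttgttTGG, and the latter runs into the match marked there. The strict form was found for 1 of the 9 genes, Fhl1, and in 1.63% of all 32851 windows, which does not show that the other genes lack a CArG box. A gene can have several windows, and 1.66% of the 10226 tested genes with a window had it in any. The 6-letter core TGGGAA of RBPJ, the factor through which Notch acts, was searched on both strands and found for 5 of the 9, Acta2 among them, in 25.6% of all windows and for 27.1% of those tested genes. Both matching stretches are shown because Fhl1 is the CArG match and Acta2 names the reporter; capitals mark the match. The Fhl1 stretch is the last 250 bases before 1 of 2 listed starts of the gene, the other window holding no CArG box (chrX:56779433-56779682, plus strand, 5′ to 3′). The Acta2 stretch is likewise the 250 bases before its start (chr19:34255374-34255623, minus strand, 5′ to 3′). Its match begins 27 bases before the start.
Fhl1: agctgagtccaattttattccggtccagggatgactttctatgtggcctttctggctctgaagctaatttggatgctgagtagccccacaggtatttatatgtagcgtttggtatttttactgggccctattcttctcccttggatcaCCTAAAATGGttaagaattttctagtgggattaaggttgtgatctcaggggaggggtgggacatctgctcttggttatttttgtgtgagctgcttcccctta
Acta2: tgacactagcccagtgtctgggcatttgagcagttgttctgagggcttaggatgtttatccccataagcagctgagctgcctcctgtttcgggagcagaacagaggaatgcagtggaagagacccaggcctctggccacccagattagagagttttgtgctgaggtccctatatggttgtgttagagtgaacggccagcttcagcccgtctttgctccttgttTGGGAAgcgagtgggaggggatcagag
A match is a run of letters and not a measured site. Of the Notch genes higher in pericytes, Dll4 and Notch1 had a window, and neither window held the core TGGGAA on either strand.

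The Hedgehog list was the one in which no member had an estimate above 0. Of 13 genes tested, 3 were higher in visceral cells, 0 in pericytes and 10 did not pass, with a median of -2.41. Hhip, a Hedgehog target that sequesters the ligands (ENSMUSG00000064325, chromosome 8 from 79965851 to 80058006), was at 115.5, 25.7 and 14.4 CPM in pericytes and 2345, 2260 and 1610 CPM in visceral cells (-5.78 ± 0.53 SE at an adjusted p of 0.00162). The receptor Ptch1, itself a target, was at 113.1, 9.88 and 74.1 against 641.6, 721.8 and 589.4 CPM (-3.70 ± 0.67 SE at an adjusted p of 0.0304). The forkhead factor Foxf2 was at 3.54, 1.98 and 28.1 against 195.5, 138.7 and 178.6 CPM (-4.78 ± 0.96 SE at an adjusted p of 0.0446). All visceral values of the 3 genes lay above all pericyte values, as for every gene called higher in visceral cells. The pericyte values of the 3 genes varied several-fold between mice. Of the transducers, Gli1 (-3.52, adjusted p = 0.0668) and Gli2 (-3.78, adjusted p = 0.174) did not pass, nor did Smo (-0.80, adjusted p = 0.816). Foxf2 lost its call under 10 alternatives that kept 20GG79:6, and the Hedgehog count ran from 1 to 7 over the alternatives that kept 20GG79:6.

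Of 25 BMP genes, Id3, a target of BMP signals, was higher in pericytes (1030.8, 759.5 and 454.7 against 254.8, 157.5 and 173.6 CPM, 1.99 ± 0.39 SE at an adjusted p of 0.042), and 2 were higher in visceral cells. The ligand Bmp4 was at 263.4, 28.995 and 188.97 against 1027.6, 856.98 and 844.7 CPM (-2.86 ± 0.54 SE at an adjusted p of 0.0339). Chrdl2, a BMP antagonist, was at 5.12, 3.95 and 1.11 against 254.01, 183.99 and 147.5 CPM (-5.96 ± 0.81 SE at an adjusted p of 0.00803). So a ligand was higher on one side and a target on the other. Of 24 WNT and R-spondin genes, 1 passed, the secreted modulator Dkk3, at 288.5, 348.3 and 276.7 against 1348, 1166 and 1321 CPM (-1.98 ± 0.33 SE at an adjusted p of 0.0215), and the list's median was -1.65.

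**Figure D4:**
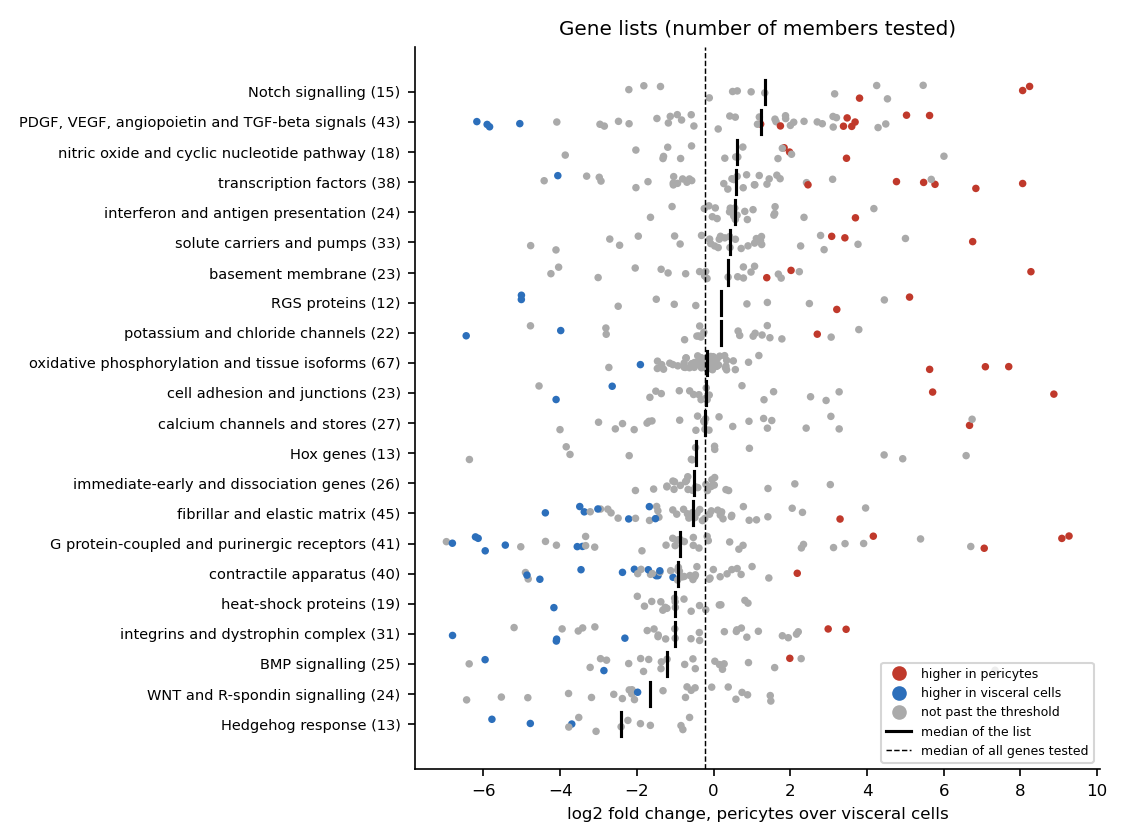
The log2 fold change of every tested member of the 22 gene lists, pericytes over visceral cells (horizontal axis), with lists ordered by their median (black bar) and the number tested in brackets; vertical scatter within a list has no meaning. Red and blue points passed the threshold, grey ones did not, and the dashed line is the median of all genes, -0.23; the Hedgehog list (-2.41) is lowest and the Notch list (1.33) highest.

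Of 23 basement membrane genes, 3 were higher in pericytes, 0 in visceral cells and 20 did not pass, with a median of 0.38. Lamc3, a laminin gamma chain (ENSMUSG00000026840, chromosome 2 from 31887291 to 31946539), was at 622.8, 946.95 and 1051.2 CPM in pericytes and 0.951, 4.37 and 5.90 CPM in visceral cells (8.27 ± 0.57 SE at an adjusted p of 0.00101), the smallest adjusted p of all genes along with Tnfrsf21 and Pdgfrb. Col4a2, a chain of basement membrane collagen, was at 2262, 2530 and 2509 against 1002.8, 1189 and 825.02 CPM (1.39 ± 0.24 SE at an adjusted p of 0.0215). Col18a1, the source of endostatin, was at 1212, 866.9 and 914.5 against 254.9, 425.1 and 163.2 CPM (2.02 ± 0.34 SE at an adjusted p of 0.0215). Col4a1, the partner chain that shares a promoter with Col4a2, missed the threshold (0.98, adjusted p = 0.0946). Of the 45 genes of the fibrillar and elastic matrix that were tested, 1 was higher in pericytes, 7 in visceral cells and 37 did not pass, with a median of -0.55. Postn, the matrix protein periostin, was at 1257, 451.7 and 1796 CPM in pericytes and 5643, 4300 and 5133 CPM in visceral cells (-2.21 ± 0.27 SE at an adjusted p of 0.00469). Ltbp4, which holds latent TGF-beta on elastic fibres, was at 890.7, 828.7 and 1429 against 3344, 3707 and 3380 CPM (-1.67 ± 0.24 SE at an adjusted p of 0.00879). The proteoglycan Ogn was at 210.6, 14.8 and 131.9 against 1916, 560.96 and 708.9 CPM (-3.49 ± 0.50 SE at an adjusted p of 0.00995). Col12a1 (-3.37), Efemp1 (-4.39), the crosslinking enzyme Loxl1 (-3.02) and fibronectin, Fn1 (-1.52), were higher in visceral cells too. The member higher in pericytes was Col5a3, a minor fibrillar collagen chain, at 768.3, 553.5 and 334.7 against 84.3, 67.1 and 32.4 CPM (3.30 ± 0.40 SE at an adjusted p of 0.00402). Whether the 2 lists differ from each other was not tested.

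Of 31 integrin and dystrophin complex genes, 2 were higher in pericytes and both bind laminin: Itga7 at 928.7, 1970 and 748.3 against 80.8, 110.6 and 141.9 CPM (3.45 ± 0.47 SE at an adjusted p of 0.00789) and Bcam at 969.2, 743.3 and 791.5 against 36.9, 170.5 and 206.2 CPM (2.99 ± 0.57 SE at an adjusted p of 0.0353). The 4 higher in visceral cells were the integrin chains Itgb3 (31.9, 3.29 and 30.02 against 263.8, 258.1 and 352.97 CPM, -4.10 ± 0.71 SE at an adjusted p of 0.0247), Itga5 (-2.31) and Itga9 (-4.09), whose integrins bind fibronectin, vitronectin or tenascin, and Cav3 (-6.81), the caveolin of muscle. Itga5 lost its call under 9 and Itga9 under 10 alternatives that kept 20GG79:6. Of 23 adhesion and junction genes, 2 passed on each side. Cdh2, N-cadherin, was at 251.7, 207.2 and 160.5 CPM in pericytes and 0.549, 0.999 and 0.167 CPM in visceral cells (8.87 ± 0.85 SE at an adjusted p of 0.00162). Gja4, a connexin of vessels, was at 988.8, 746.95 and 348.7 against 8.69, 13.4 and 20.3 CPM (5.71 ± 0.66 SE at an adjusted p of 0.00355). Visceral cells were higher in Ncam1, a neural adhesion molecule (23.9, 30.97 and 57.6 against 593.9, 723.8 and 621.3 CPM, -4.11 ± 0.45 SE at an adjusted p of 0.00293), and in Cavin2, a coat protein of caveolae (67.3, 28.3 and 119.3 against 427.99, 416.2 and 383.1 CPM, -2.64 ± 0.51 SE at an adjusted p of 0.0378), which lost its call under 6 such alternatives.

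Of 38 transcription factors tested, 6 were higher in pericytes, 1 in visceral cells and 31 did not pass. Beside Heyl, pericytes were higher in Epas1, the hypoxia-inducible factor HIF-2 alpha, at 1127, 1427 and 1457 against 232.2, 295.8 and 249.5 CPM (2.46 ± 0.30 SE at an adjusted p of 0.00401), and in Nr2f2, a nuclear receptor of venous fate, at 234.8, 478.7 and 328.99 against 11.4, 14.99 and 12.95 CPM (4.77 ± 0.54 SE at an adjusted p of 0.00325). Foxs1, a forkhead factor, was at 176.9, 196.05 and 143.7 against 2.32, 4.18 and 7.25 CPM (5.48 ± 0.81 SE at an adjusted p of 0.0116). Ebf1 (5.77) and Ebf2 (6.84) were the other 2. Pitx1, a homeobox factor of the hindlimb, was higher in visceral cells, at 44.99, 5.601 and 47.9 against 452.3, 426.99 and 426.6 CPM (-4.06 ± 0.66 SE at an adjusted p of 0.0181). Of 13 Hox genes tested, 0 passed by edgeR, beside 1.03% and 0.926% of all genes. By edgeR 5 of them had an unadjusted p under 0.05, beside 1781 of all 14688 genes. DESeq2 called 5 Hox genes and limma-voom 2, on both sides.

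Of 67 oxidative phosphorylation genes and isoforms, 3 were higher in pericytes, 1 in visceral cells and 63 did not pass, with a median of -0.18 beside -0.23 for all genes. Ndufa4l2, a hypoxia-responsive relative of Ndufa4 (ENSMUSG00000040280, chromosome 10 from 127514967 to 127517154), was at 590.3, 637.9 and 540.1 CPM in pericytes and 7.76, 3.87 and 3.28 CPM in visceral cells (7.09 ± 0.56 SE at an adjusted p of 0.00116). Cox4i2, the hypoxia-responsive isoform of a subunit of cytochrome c oxidase, was at 306.2, 313.01 and 204.2 against 3.001, 7.87 and 8.29 CPM (5.63 ± 0.69 SE at an adjusted p of 0.00461). Their common counterparts did not pass: Cox4i1 was at 221.4, 294.9 and 288.1 against 277.7, 249.3 and 350.1 CPM (-0.03 ± 0.41 SE at an adjusted p of 0.99) and Ndufa4 at 6.71, 6.92 and 41.3 against 86.9, 58.9 and 135.9 CPM (-2.73 ± 0.84 SE at an adjusted p of 0.174). Gm20388 lies over Cox4i1 on the same strand, with 1634 counts in pericytes and 31972 in visceral cells, so the ratio of Cox4i1 depends on how reads were divided between them. Higd1b, a pericyte gene of the hypoxia-induced family, was at 54.99, 9.88 and 125.7 against 0.592, 0 and 0.463 CPM (7.70 ± 1.30 SE at an adjusted p of 0.0217). Ckb, brain creatine kinase, was the member higher in visceral cells, at 405.5, 328.8 and 478.3 against 1586, 1515 and 1719 CPM (-1.91 ± 0.27 SE at an adjusted p of 0.00865).

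Of 33 solute carriers and pumps, 3 were higher in pericytes and 0 in visceral cells. Atp1b2, a beta subunit of the sodium pump, was at 1479, 1393 and 982.6 against 190.5, 159.1 and 134.9 CPM (3.08 ± 0.33 SE at an adjusted p of 0.00261). Slc7a2, a carrier of cationic amino acids, was at 360.5, 262.9 and 258.8 against 1.37, 3.68 and 4.53 CPM (6.76 ± 0.73 SE at an adjusted p of 0.00281). Slco2b1, an organic anion carrier, was at 194.1, 124.9 and 331.2 against 32.5, 13.6 and 18.1 CPM (3.42 ± 0.64 SE at an adjusted p of 0.0339). Of 26 immediate-early and dissociation genes, 0 passed by edgeR, beside 1.03% and 0.926% of all genes, with a median of -0.51. By edgeR 5 had an unadjusted p under 0.05, 2 higher in pericytes and 3 in visceral cells, beside 1781 of all 14688 genes. DESeq2 called 2 and limma-voom 1, each higher in pericytes. The part of dissociation in the results was not tested. Of 19 heat-shock genes, 1 passed, Hspb8, higher in visceral cells at 71.3, 4.28 and 7.64 against 288.9, 231.3 and 228.7 CPM (-4.16 ± 0.84 SE at an adjusted p of 0.0459), a call lost under 9 alternatives that kept 20GG79:6. Of 24 interferon and antigen presentation genes, Ifitm1 was higher in pericytes, at 433.6, 476.4 and 856.5 against 37.2, 28.3 and 93.01 CPM (3.70 ± 0.46 SE at an adjusted p of 0.00469).

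The largest fold changes belonged to genes that one class nearly lacked. Tnfrsf21, death receptor 6 (ENSMUSG00000023915, chromosome 17 from 43016555 to 43089189), was at 767.7, 422.1 and 600.8 CPM in pericytes and 2.30, 0.4996 and 0.555 CPM in visceral cells (9.44 ± 0.66 SE at an adjusted p of 0.00101). Plxdc1, a membrane protein of tumour vessels, was at 542.7, 759.5 and 356.7 against 1.10, 6.06 and 0.333 CPM (8.72 ± 0.72 SE at an adjusted p of 0.00125). Olfm2, an olfactomedin, had the largest of the named changes, 10.31 ± 1.19 SE at an adjusted p of 0.00355, but 28 pericytes (20.59%) had counts of it and its levels were 225.4, 35.6 and 110.9 CPM. Tmem273 rested on 20GG79:1, with 135.8, 8.24 and 11.9 CPM in pericytes (9.32 ± 1.51 SE at an adjusted p of 0.0183). On the visceral side Wscd2 was at 5.36, 5.27 and 2.66 CPM in pericytes and 305.2, 529.04 and 419.7 CPM in visceral cells (-6.49 ± 0.61 SE at an adjusted p of 0.00162), and Sntg2, a syntrophin of the dystrophin complex, at 2.93, 1.65 and 1.77 against 240.3, 164.3 and 251.4 CPM (-6.63 ± 0.75 SE at an adjusted p of 0.00308). Sncaip, a synuclein-binding protein (-6.32 ± 0.65 SE at an adjusted p of 0.00202), the magnesium carrier gene Nipal4 (-6.54 ± 0.86 SE at an adjusted p of 0.00637), Vwa5b2 (-6.93 ± 0.89 SE at an adjusted p of 0.00525) and the monocarboxylate carrier Slc16a7 (-6.63 ± 1.18 SE at an adjusted p of 0.0257) followed. Dnaic1, a dynein chain of cilia (-6.90 ± 1.12 SE at an adjusted p of 0.0184), lies over Enho on the opposite strand, which had 16907 counts in visceral cells and 190 in pericytes, so its reads cannot be parted from those of Enho here. Of the 92 named genes, 44 overlap another annotated gene, 37 of them one on the opposite strand.

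Within the classes, levels varied from cell to cell. Rgs5 was at 100 CPM or more in 94.12% of the pericytes and also in 44.11% of the visceral cells, and 98 visceral cells (18.32%) had at least 1000 CPM. The share of visceral cells with at least 100 CPM was 29.9% in 20GG79:1, 37.7% in 20GG79:6 and 52.4% in 20GG95:3. Visceral cells with Rgs5 kept Actg2: 89 of the 98 also had at least 1000 CPM of Actg2. In the other direction, 18 pericytes (13.24%) had at least 1000 CPM of Actg2, 17 of them from 20GG95:3, while 75.74% had under 200 CPM. Of Rgs5, Kcnj8, Pdgfrb and Cspg4, all 4 were at 100 CPM or more in 57 pericytes (41.9%) and 8 visceral cells, and none was in 0 pericytes and 23.7% of the visceral cells. Of Cnn1, Actg2, Hhip and Ckb, all 4 were at that level in 77.8% of the visceral cells and in 5 pericytes, and none was in 1 visceral cell and 47 pericytes (34.6%). These limits were set after the values were seen.

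2 further gates in the same mice place the differences beside other contractile and mesenchymal cells. Vascular cells met the Notch3, Pdgfra and Cdh5 limits of the pericytes but had more P2rx1 and Sorbs2 than Abcc9 and Gpx3, and numbered 10, 14 and 89. Fibroblasts had at least 200 CPM of Pdgfra, under 200 CPM of Notch3 and under 100 CPM of Cdh5 and Epcam, and numbered 90 and 58 in 20GG79:1 and 20GG79:6, with 0 in 20GG95:3. Values in them were not tested. Agtr1a was at 4.33, 6.24 and 3.91 CPM in vascular cells and 41.8 and 64.3 CPM in fibroblasts, beside 244.3, 253.4 and 296.5 CPM in pericytes. Lamc3 was at 6.30, 53.9 and 46.8 CPM in vascular cells, below all 3 pericyte values (622.8, 946.95 and 1051.2 CPM), and Tnfrsf21 at 11.4, 104.1 and 53.9 CPM. For Kcnj8 vascular cells, at 147.2, 204.7 and 76.99 CPM, lay in or below the range of visceral cells and far below that of pericytes.

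Other genes higher in pericytes than in visceral cells had vascular values far above the visceral ones; vascular cells were not tested. Among them were the hypoxia-responsive Ndufa4l2, at 305.5, 1066.95 and 395.7 CPM in vascular cells, and Cox4i2, at 164.5, 317.3 and 185.2 CPM. Atp1b2 was at 1960, 2088 and 1936 CPM in vascular cells and Itga7 at 995.9, 1560 and 1265 CPM. Dll4 went the other way, at 2.76, 1.25 and 0.768 CPM. Further examples in vascular cells follow, and they are not a full list. Gucy1a1 was at 1861, 1565 and 1614 CPM there, Rgs4 at 1516, 1475 and 2192 CPM, Gja4 at 1009.7, 594.4 and 790.3 CPM and Bcam at 1784, 1790 and 2303 CPM, and Heyl at 806.2, 695.99 and 814.1 CPM lay between pericytes and visceral cells. Igfbp4 was instead high in fibroblasts, at 1386 and 1064.9 CPM, as in pericytes. Of the genes higher in visceral cells, Hhip was low in both other muscle and mesenchymal gates, at 20.1, 25.5 and 3.28 CPM in vascular cells and 121.6 and 193.1 CPM in fibroblasts, and Bdkrb2 at 5.12, 3.74 and 1.40 and 73.3 and 72.04 CPM. Bmp4 and Postn were low in vascular cells (24.01, 29.5 and 19.2 and 207.8, 658.3 and 27.4 CPM) but high in fibroblasts (1503 and 1502 and 3931 and 2544 CPM). Acta2 in vascular cells, at 5283, 4284 and 7846 CPM, overlapped the range of visceral cells, while Actg2 at 581.03, 428.6 and 619.7 CPM lay within the range of the pericytes.

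**Figure D5:**
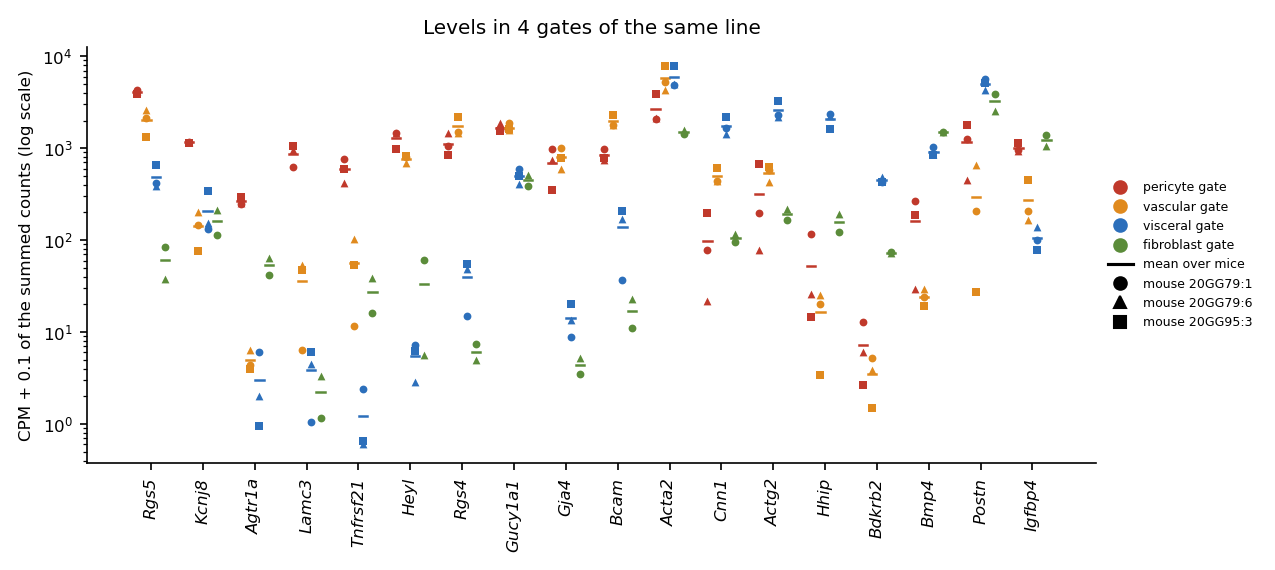
CPM of the summed counts, with 0.1 added, on a log scale, for 18 genes in 4 gates of the same line: pericytes (red), vascular cells (orange), visceral cells (blue) and fibroblasts (green). Points are mice and bars their means, over 3 mice or, for fibroblasts, 2; Agtr1a and Lamc3 are highest in the pericyte gate, Gucy1a1 lies alike in pericytes and vascular cells, and Hhip is highest in visceral cells.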

How the data were processed

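Single cells of 3 mice of the reporter line ACTA2GFP:CSPG4dsRED were analysed. The deposited values are raw counts per gene and cell, with no normalization by the authors: 46517 gene identifiers and 92 ERCC spike-ins in 1615 cells. Bowtie, Bowtie2, featureCounts (Subread), bcl2fastq and the builds mm10 and GRCm38 are named per the submitters' processing notes, without versions, and strand is not given in the sources used here. Smart-Seq2 has no molecular identifiers, so counts are of reads and include amplification noise. Symbols and positions are from GENCODE for GRCm38. Cells are named by plate, and each plate holds 1 mouse.

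Members, lists and gates were chosen with earlier results of these data known. Doublets were not called; the gates and the marker check given in the report stand in for that. Within each mouse, raw counts of a class were added up over its cells, giving 8201599, 3034997 and 9027693 counts in pericytes and 47316156, 16011982 and 54035959 in visceral cells. They were tested with edgeR 4.0.16 in R 4.3.3 (TMM factors, filterByExpr, robust quasi-likelihood fit with mouse as a block, 2 residual degrees of freedom). Adjusted p-values are by Benjamini-Hochberg over 14688 genes, and SE is the absolute log2 fold change over the square root of F. Classes are paired because both come from the same animals. The p-values rest on the spread between 3 mice, with each gene's spread drawn towards that of the other genes. The median prior degrees of freedom of that step were 6.881. CPM are scaled to 1000000 gene counts of a cell or a sum.

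Named genes are the 10 largest changes in each direction and up to 4 genes per list and direction by p, among genes at an adjusted p of at most 0.05 whose higher class averaged 50 CPM or more and that had 1 direction in all 3 mice. Rgs5, Kcnj8, Pdgfrb, Cspg4, Acta2, Actg2, Des, Cox4i1, Cox4i2, Ndufa4 and Ndufa4l2 are named in every case, and ribosomal, mitochondrially encoded, predicted and unnamed genes are left out. Some results are not reported here. Members of a list given with a log2 fold change alone complete or contrast its counts. Alternatives were DESeq2 1.42.0, limma 3.58.1, other scaling, filters, gates, blocks and left-out mice, plates and cells.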

Additional observations from a re-analysis of the deposited data

Results flagged for a closer look

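Cox4i1, the common isoform of cytochrome c oxidase subunit 4, differed in direction between the sexes. The log2 ratio of pericytes to visceral cells was 0.24 in the male 20GG79:6 and -0.33 and -0.28 in the females 20GG79:1 and 20GG95:3. Gm20388 overlaps it on the same strand. The difference was not tested, and with 1 male its sex, plate and share of cells with markers of other types cannot be told apart.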

How the results depend on the processing

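As shares of the 14688 genes, the calls higher in pericytes and in visceral cells were 1.028% and 0.9259%, and 1.185% and 1.076% without the replicate block. They were 1.763% and 2.077% with plate as block, 4.459% and 6.509% by DESeq2, 1.954% and 2.056% by limma-voom, 1.559% and 2.356% with no filter on low counts, and 1.940% and 2.533% by limma on the mean of cell CPM. The visceral share was 0.6059% with relative log expression factors. Leaving out 1 mouse gave 0 to 1.062% and 0 to 0.8374%, with 0 and 0 without 20GG79:6; limma-voom without that mouse, added after seeing the data, also gave 0 and 0. Pericyte genes were 52.6% of the calls, against 40.7% by DESeq2, 39.8% with no filter and 60.96% with relative log expression factors. The share of the calls also made was 65.16% in cells with at least 150000 counts, 66.9% without cells holding markers of other types, 68.29% without 20GG95:3, 72.13% with Myh11 of at least 3000 CPM, 73.87% without 20GG79:1, 93.38% by DESeq2 and 98.95% by limma-voom.

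Of the 92 genes that the naming rule picks, 53 kept their call under every alternative that tested them, those without 20GG79:6 aside, and 1 reversed. The filter of at least 10 CPM tested 88 of the 92 and the cells with at least 150000 counts tested 90. The fit without cells holding markers of other types tested 87. The log2 fold change of Cox4i1, at -0.03, turned to 0.004881 without the replicate block, 0.12 by DESeq2, 0.12 with relative log expression factors, 0.048 with at least 10 CPM, 0.11 in cells with at least 150000 counts, 0.16 without cells holding markers of other types, 0.16 without 20GG79:1 and 0.09 without 20GG95:3, against -0.40 without 20GG79:6. Acta2 lost its call by DESeq2, with relative log expression factors, without the block, without such cells and without 20GG95:3. The cause was not tested. With 15 pericytes in 20GG79:6 and counts of reads, genes present in few cells are the least certain: 1 cell held over 20% of the counts for 4 named genes.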

Other observations

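Among called genes outside the lists were 5 receptor genes higher in pericytes, chosen after their values were seen. Vipr1, a receptor for vasoactive intestinal peptide, was at 114.98, 33.9 and 84.2 CPM in pericytes and 0.148, 1.19 and 0.0555 CPM in visceral cells (8.49 ± 1.56 SE at an adjusted p of 0.0326, edgeR). Adcyap1r1, the receptor for the related peptide PACAP, was at 119.98, 50.7 and 198.4 against 6.26, 0.999 and 0.352 CPM (6.34 ± 1.26 SE at an adjusted p of 0.0436). Crhr2, a receptor for urocortins, was at 147.8, 40.5 and 85.5 against 0.211, 0.187 and 2.89 CPM (7.46 ± 1.37 SE at an adjusted p of 0.0321). They were in a minority of cells: 21, 56 and 32 pericytes (15.44%, 41.18% and 23.53%) had counts. Olfr558, an odorant receptor gene, was wider spread, in 99 pericytes (72.79%), at 363.3, 372.98 and 260.1 against 0.972, 14.7 and 18.6 CPM (5.605 ± 0.996 SE at an adjusted p of 0.0273); vascular cells had 846.7, 404.7 and 410.4 CPM. Cysltr2, a leukotriene receptor, was at 1.59, 12.9 and 48.7 CPM in pericytes and had 0 counts in visceral cells (adjusted p = 0.0436), but 11 pericytes (8.088%) had counts and 1 held 33.3% of them. The neuropeptide receptor Nmur2 was instead higher in visceral cells, at 0.366, 1.65 and 0.222 CPM in pericytes against 34.6, 107.7 and 16.7 CPM (-6.14 ± 1.14 SE at an adjusted p of 0.0318).

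Visceral cells were higher in 3 receptor tyrosine kinases that are better known from other cells, also chosen after their values were seen. Met, the receptor for hepatocyte growth factor, was at 3.90, 0.659 and 0.443 CPM in pericytes and 86.2, 53.4 and 81.1 CPM in visceral cells (-5.93 ± 1.15 SE at an adjusted p of 0.0399, edgeR). Its relative Mst1r was at 1.59, 0.988 and 12.5 against 144.1, 235.5 and 166.6 CPM (-5.87 ± 1.01 SE at an adjusted p of 0.0231), and Ret, the receptor for glial cell line-derived neurotrophic factor, at 0.122, 1.32 and 0.775 against 19.5, 91.4 and 30.7 CPM (-5.99 ± 1.19 SE at an adjusted p of 0.042). The growth factor Ereg was at 2.07, 1.32 and 3.10 against 91.4, 73.01 and 99.3 CPM (-5.31 ± 0.93 SE at an adjusted p of 0.0241). Ret is a marker of enteric neurons and was highest in 20GG79:6; the part of such cells in its level was not tested. Agt, the precursor of angiotensin, was at 141.3, 425.04 and 85.2 CPM in pericytes and 1105.3, 1380 and 1001.4 CPM in visceral cells (-2.66 ± 0.49 SE at an adjusted p of 0.0314), while its receptor Agtr1a was higher in pericytes, at 244.3, 253.4 and 296.5 against 5.96, 1.94 and 0.851 CPM.

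Trac and Il2ra, also chosen after their values were seen, were called higher in pericytes. Trac, the constant region of the T cell receptor alpha chain, was at 70.2, 54.7 and 10.97 CPM in pericytes and 0.0845, 0.0625 and 0.0740 CPM in visceral cells (8.82 ± 1.40 SE at an adjusted p of 0.0168), with counts in 17 pericytes (12.50%) and 9 visceral cells (1.682%); vascular cells had 1.18, 88.9 and 15.1 CPM. Il2ra, the interleukin 2 receptor alpha chain, was at 36.6, 154.9 and 25.9 against 0.486, 0.874 and 0.130 CPM (7.18 ± 1.06 SE at an adjusted p of 0.0108), with counts in 31 and 30 cells. The immune markers summed to 24.4, 1025.7 and 7.2 CPM in pericytes, and by edgeR 0 of the 6 tested were called. That list holds no T cell receptor gene, so it is no measure of T cells in particular. The part of immune cells in the levels of Trac and Il2ra was not tested.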
